A study of Mus musculus with 18 samples.

Results

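Medial frontal cortex of newborn mice was compared between double mutants of the receptor genes RXRg and RARb (dKO) and controls. All libraries whose brain region is given as Medial were taken, which made 6 of the 18 libraries of the series: 3 from dKO pups and 3 from control pups. The pups were at postnatal day 0, and neither genotype is described as carrying any other allele or treatment. The labels give neither the deleted exons, the strain, the litter nor the number of animals, and they do not say whether the mutation was confined to a cell type. Replicate 1 of each genotype carries the title prefix RAR, and replicates 2 and 3 carry the prefix RXR. Values in sets of 3 are given below in the order of replicates 1, 2 and 3. Orbital and dorsal libraries, 6 of each region with the same genotypes, served for comparison and helped to estimate the spread between replicates. Since separate animals are not stated, p-values measure the spread between these samples, which may be technical in part.

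Retinoic acid is a vitamin A derivative that binds retinoic acid receptors such as RARb, which act on DNA in pairs with retinoid X receptors such as RXRg. In the developing brain it is known for its part in patterning, in the exit of progenitors from division and in neuronal differentiation. At birth the frontal cortex holds young projection neurons that are growing neurites and first synapses. Beneath them, along the ventricle, lie the last dividing cells: radial glia, which are the neural stem cells, and intermediate progenitors, their neuron-producing daughters. Tissue was dissected in bulk, so a change in a transcript's level cannot be told apart from a change in the share of cells that carry it.

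The 6 medial libraries held 52317649, 29595577 and 34507919 counted fragments in dKO and 93093398, 34832614 and 32211906 in controls. Levels are given as CPM, counts per 1e6 fragments of a library after TMM scaling, a correction that sets the bulk of genes equal between libraries. Neurod6, a transcription factor that marks cortical excitatory neurons, was present in every library, at 1161, 1379 and 1517 CPM in dKO libraries, against 1923, 1455 and 1203 CPM in control libraries. Nkx2-1 of the ventral forebrain was at most 1.01 CPM and Ttr of the choroid plexus at most 2.13 CPM in any of the 6. Mitochondrially encoded transcripts made up 0.842%, 1.99% and 0.839% of counts in dKO, against 0.746%, 0.688% and 0.881% in controls. Xist, expressed from the inactive X of females, was at 22.3, 0.0667 and 11.3 CPM in dKO libraries, against 0, 0 and 0.156 CPM in control libraries, and the Y-linked Ddx3y at 0.0527, 111 and 0.203 CPM in dKO libraries, against 61.6, 66.9 and 88.5 CPM in control libraries. By these transcripts the dKO pups of replicates 1 and 3 were female and the other 4 medial libraries male, so sex differed between genotypes in 2 of the 3 sets.

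Transcripts of both targeted genes were still counted in dKO tissue. Rarb stood at 2.72, 1.40 and 1.19 CPM in dKO libraries, against 3.67, 4.85 and 5.02 CPM in control libraries. Every dKO library lay below every control library, but replicate 1 was close to its control (log2 fold change -1.37, SE 0.372, adjusted p = 0.0686). Rxrg stood at 1.05, 1.67 and 0.377 CPM in dKO libraries, against 2.15, 6.26 and 2.87 CPM in control libraries. Its groups did not overlap either, and its control replicate 2 was far above the other controls (log2 fold change -1.75, SE 0.977, adjusted p = 0.435). Neither gene passed the test across all genes, and counts over whole genes do not show whether the remaining transcripts were intact.

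In dKO medial cortex many genes of mitosis and several of progenitors rose, while fewer genes of neurons and of cholesterol synthesis fell. Of 18730 genes tested, 221 rose and 168 fell in dKO with an adjusted p under 0.05 (edgeR's quasi-likelihood test, Benjamini-Hochberg adjustment over all genes tested), which is 1.18% of tested genes in the rising and 0.897% in the falling direction. At least 2-fold changes made up 183 of the rises and 51 of the falls. The median log2 fold change of the genes that rose was 1.43, that of the genes that fell was -0.87, and that of all genes tested was -0.0043. The difference within each same-numbered pair of libraries had the sign of the fitted change in all 3 pairs for each of the 389 genes. For 378 of the 389 the dKO and control libraries did not overlap, so that any pairing of these libraries would give that sign. Over all genes tested, 8.26% were higher without overlap in dKO and 9.29% were lower without overlap. The count of 389 was 67, 107 and 133 without dKO replicate 1, 2 and 3 and 362, 122 and 158 without control replicate 1, 2 and 3, and 54 genes (41 higher, 13 lower) passed in each of these 6 cases. It was 156 with sex as a covariate, 130 of them among the 389, 156 without the title prefix and 31 from the 6 medial libraries alone.

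**Figure D1:**
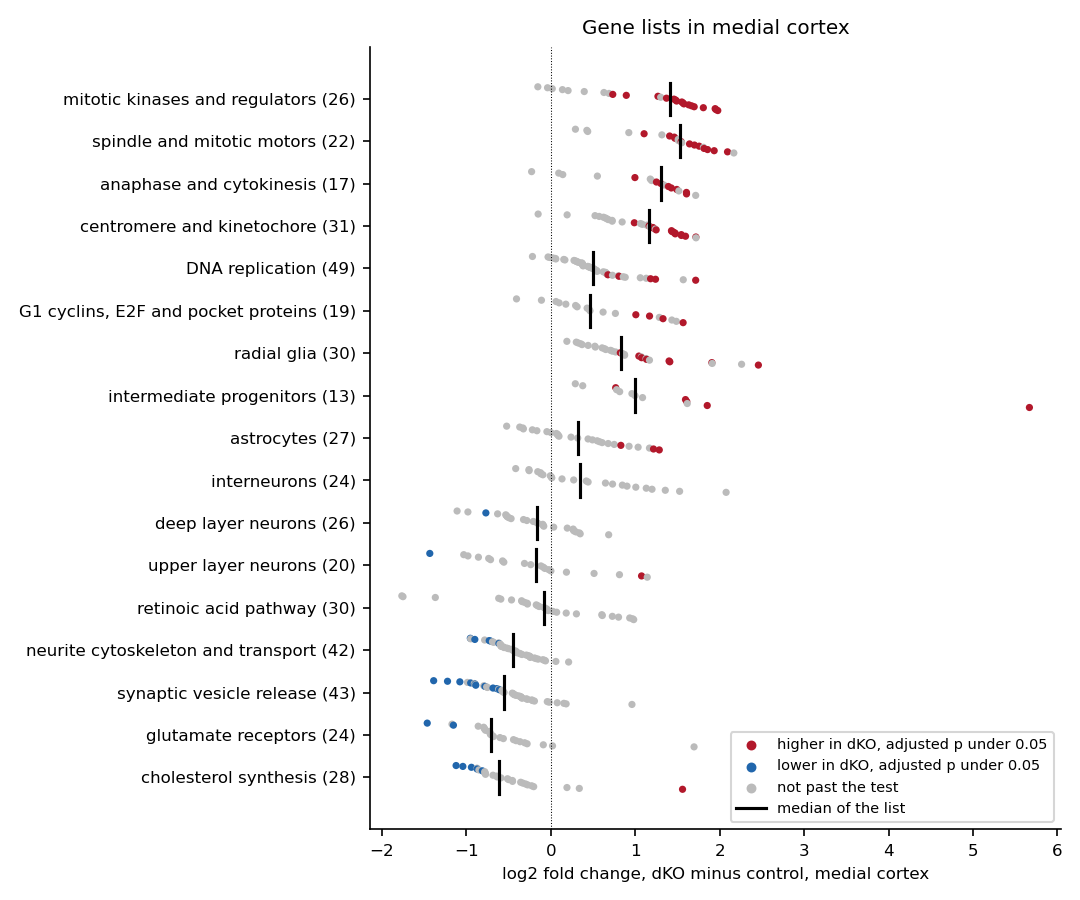
Each point is a gene of the list named on the left (number of measured members in brackets), placed by its log2 fold change between 3 dKO and 3 control libraries of medial cortex; red and blue mark genes past the test and black bars the list medians. The mitosis lists lie almost wholly to the right of 0 (medians 1.16 to 1.53), while synaptic vesicle release (-0.55), glutamate receptor (-0.70) and cholesterol genes (-0.61) lie mostly to the left.

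Genes of mitosis made up the broadest rise. Of 96 measured genes in 4 lists (mitotic kinases and regulators, spindle and motors, centromere and kinetochore, anaphase and cytokinesis), 51 (53.1%) rose and none fell, and 76 were higher in dKO without overlap. Over all genes tested, 1.18% rose and 8.26% were higher without overlap. The median log2 fold change of the 96 was 1.33, and within replicates 1, 2 and 3 the medians were 1.27, 1.0 and 1.53. The summed level of the 96 genes was 2609 to 3170.3 CPM in dKO libraries, against 1929.7 to 2093 CPM in control libraries. Of the 51 calls, 16, 22 and 20 remained without dKO replicate 1, 2 and 3, and 27, 29 and 18 without control replicate 1, 2 and 3. In all, 15 of the 51 held whichever of these libraries was left out. With sex as a covariate 23 of the 51 remained, without the title prefix 20, and from the 6 medial libraries alone 7.

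Cdk1, the kinase that drives entry into mitosis, stood at 33.9, 32.8 and 28.4 CPM in dKO libraries, against 14.01, 12.0 and 10.9 CPM in control libraries. Ccnb1, its cyclin B1 partner, stood at 68.4, 39.3 and 58.1 CPM in dKO libraries, against 24.1, 19.3 and 10.7 CPM in control libraries. Both genes were higher in every dKO library than in any control (log2 fold change 1.37, SE 0.180, adjusted p = 0.00260 for Cdk1 and 1.63, SE 0.286, adjusted p = 0.00890 for Ccnb1 in edgeR). Cdc25c, the phosphatase that activates Cdk1, rose by 1.98 on the log2 scale and its relative Cdc25b by 0.73, while Wee1, the kinase that restrains Cdk1, rose by 0.89. The transcription factor genes Foxm1 (1.27) and Mybl2 (1.58), which activate late cell cycle genes, rose as well. The calls of Cdk1 and Ccnb1 held with each of the 6 medial libraries left out. Those of Cdc25c, Cdc25b, Wee1, Foxm1 and Mybl2 were lost in 4 to 6 of these 6 cases.

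Aurka, a kinase of the spindle poles, stood at 28.2, 16.3 and 17.6 CPM in dKO libraries, against 10.3, 5.20 and 5.77 CPM in control libraries. Bub1b, a sensor of unattached chromosomes, stood at 33.7, 23.3 and 31.3 CPM in dKO libraries, against 9.33, 9.44 and 6.39 CPM in control libraries. The highest control value of either gene lay below the lowest dKO value (log2 fold change 1.57, SE 0.233, adjusted p = 0.00372 for Aurka; log2 fold change 1.81, SE 0.306, adjusted p = 0.00753 for Bub1b, edgeR). Aurkb and Birc5, both of the chromosomal passenger complex, rose by 1.55 and 1.43, the Polo kinase gene Plk1 by 1.46, the checkpoint kinase gene Bub1 by 1.95 and the mitotic kinase gene Nek2 by 1.96. With 1 medial library left out at a time, Aurkb, Birc5 and Bub1 lost their calls in all 6 cases and Plk1 in 5. Those of Aurka, Bub1b and Nek2 held in each case.

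At the centromere, Cenpa, the histone variant that marks it, stood at 26.98, 25.3 and 25.2 CPM in dKO libraries, against 12.7, 6.67 and 6.83 CPM in control libraries. The groups did not overlap, although control replicate 1 was higher than its fellows (log2 fold change 1.6, SE 0.231, adjusted p = 0.00323, edgeR). Other kinetochore genes that rose were Ndc80 (1.72) and Spc25 (1.47), which form the microtubule-binding complex, and Sgo1 (1.46), which protects sister chromatid cohesion. Among spindle genes, Nusap1, a microtubule-binding protein, rose by 1.54, the motor genes Kif11, Kif2c and Kif18b by 1.76, 1.70 and 1.94, and Tacc3 of the spindle by 1.11. For exit from mitosis, Cdc20, which activates the anaphase-promoting complex, stood at 45.6, 33.8 and 39.0 CPM in dKO libraries, against 20.5, 12.5 and 10.4 CPM in control libraries. This gene too was higher in each dKO library than in each control (log2 fold change 1.49, SE 0.205, adjusted p = 0.00279, edgeR). The cytokinesis genes Prc1, Ect2, Racgap1 and Anln rose by 1.43, 1.61, 1.0 and 1.30. The calls of Cenpa, Ndc80, Spc25, Nusap1 and Cdc20 held with each of the 6 medial libraries left out. Those of Tacc3, Kif18b and Ect2 were lost in 2 or 3 of these cases. Sgo1, Kif11, Kif2c, Prc1, Racgap1 and Anln lost theirs in 4 to 6.

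**Figure D2:**
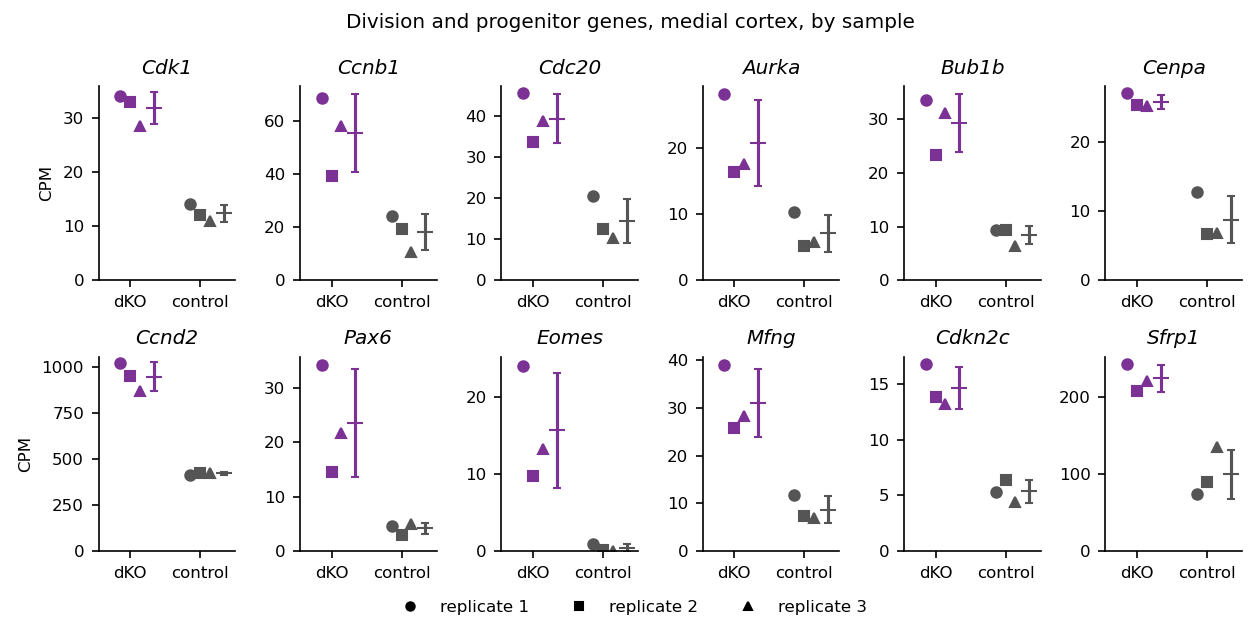
Levels in CPM (linear axes from 0) of 12 division and progenitor genes in 3 dKO and 3 control libraries of medial cortex, with the mean and SD of each group drawn beside the points. In all 12 panels the dKO points lie above the control points, and dKO replicate 1 is the highest in each, as for Pax6 (34.2 CPM).

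Promoters of mitotic genes commonly carry a CCAAT box and a cell cycle homology region (TTTGAA or TTCGAA). The windows of the 4 called mitosis genes with the lowest p that held a searched motif are shown here because these genes moved together. Each window runs 5′ to 3′ on the gene's strand from 250 bases before to 50 bases after the RefSeq start (GRCm38.p6), with CCAAT or its reverse complement and TTTGAA or TTCGAA, on either strand, in capitals. Cdk1 lies at chr10:69352863-69353162, minus strand, Cdc20 at chr4:118437294-118437593, minus strand, Cenpa at chr5:30666636-30666935, plus strand and Cdca8, a passenger complex gene that rose by 1.25, at chr4:124936868-124937167, minus strand.
Cdk1: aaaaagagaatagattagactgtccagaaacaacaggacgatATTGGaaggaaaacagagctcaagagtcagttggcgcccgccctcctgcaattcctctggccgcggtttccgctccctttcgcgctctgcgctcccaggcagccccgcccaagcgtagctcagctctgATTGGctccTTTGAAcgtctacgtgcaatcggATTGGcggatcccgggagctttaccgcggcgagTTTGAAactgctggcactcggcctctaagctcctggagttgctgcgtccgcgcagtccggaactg
Cdc20: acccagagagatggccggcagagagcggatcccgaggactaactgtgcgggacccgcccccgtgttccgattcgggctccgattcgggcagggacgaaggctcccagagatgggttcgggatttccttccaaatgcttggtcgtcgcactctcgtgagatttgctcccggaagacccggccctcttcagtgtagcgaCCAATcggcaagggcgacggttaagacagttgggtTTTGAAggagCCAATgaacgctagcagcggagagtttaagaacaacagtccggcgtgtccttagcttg
Cenpa: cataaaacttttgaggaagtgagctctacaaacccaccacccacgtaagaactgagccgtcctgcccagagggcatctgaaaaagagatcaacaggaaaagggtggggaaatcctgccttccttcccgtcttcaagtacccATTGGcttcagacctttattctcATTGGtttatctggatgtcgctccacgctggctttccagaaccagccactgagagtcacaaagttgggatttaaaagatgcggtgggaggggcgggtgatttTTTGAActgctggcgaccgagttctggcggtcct
Cdca8: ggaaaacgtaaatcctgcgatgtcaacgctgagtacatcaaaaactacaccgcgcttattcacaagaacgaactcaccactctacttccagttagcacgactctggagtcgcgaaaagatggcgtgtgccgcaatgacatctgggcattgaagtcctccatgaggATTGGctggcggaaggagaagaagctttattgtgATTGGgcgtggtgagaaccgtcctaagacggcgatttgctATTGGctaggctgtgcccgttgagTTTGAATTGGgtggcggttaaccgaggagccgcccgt
In the Cdca8 window a cell cycle homology region and a reverse CCAAT box share a base. Of the 41 called mitosis genes that had such a window, 32 (78.0%) held CCAAT and 31 (75.6%) held TTTGAA or TTCGAA on either strand, and 27 (65.9%) held both. Among all 79 measured mitosis genes with a window, 70.9% held CCAAT, 64.6% the cell cycle homology region and 53.2% both. Among 12687 tested genes with a window these shares were 42.4%, 16.7% and 6.90%. Over all 172 rising genes with a window, 62.2% held CCAAT, 33.1% the cell cycle homology region and 26.7% both. The 128 falling genes with a window held them in 32.8%, 15.6% and 4.69%. A gene with several annotated starts counted once if any of its windows held the letters. A match describes the sequence and does not show that a factor binds there.

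Genes of DNA synthesis moved less than those of mitosis. Of 49 measured replication genes, 46 had a positive fold change and 5 rose (10.2%, against 1.18% of all genes tested), with a median of 0.50. Mcm7, a subunit of the replicative helicase, stood at 188, 132 and 156 CPM in dKO libraries, against 123, 86.6 and 89.7 CPM in control libraries. The groups were separate, with the lowest dKO library 1.08 times the highest control. The other 4 were Tk1 (1.18), which salvages thymidine, Gmnn (1.24), which limits replication to once per cycle, the chromatin assembly gene Chaf1a (0.81) and Uhrf1 (1.72), which maintains DNA methylation. TTTCCCGC or TTTGGCGC, letters read by E2F factors, stood on either strand of the window in 25.6% of the 39 replication genes with a window, against 3.12% of all tested genes with one.

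Of 19 genes of the step from G1 to S phase, 4 rose: Ccnd2, Cdk2, Rbl1 and E2f8. Ccnd2, the D-type cyclin of dividing cortical cells, was the most abundant, at 1021, 947 and 867 CPM in dKO libraries, against 413, 424 and 424 CPM in control libraries. The lowest dKO library held 2.05 times the highest control (log2 fold change 1.17, SE 0.256, adjusted p = 0.0286, edgeR). Cdk2, the S phase kinase, rose by 1.01, the pocket protein gene Rbl1 by 1.33 and the repressor gene E2f8 by 1.57. Of 7 genes for inhibitors of cyclin-dependent kinases, Cdkn2c rose, at 16.8, 13.9 and 13.3 CPM in dKO libraries, against 5.34, 6.38 and 4.37 CPM in control libraries. Its group ranges were far apart (log2 fold change 1.44, SE 0.198, adjusted p = 0.00279, edgeR).

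None of the 5 replication calls and none of the 4 calls of the G1 list held under the removal of each medial library in turn, whereas the call of Cdkn2c did. Of the 5, 1, 1 and 2 remained without dKO replicate 1, 2 and 3, and 2, 2 and 1 without control replicate 1, 2 and 3.

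Of 43 progenitor genes in 2 lists, 13 (30.2%) rose, none fell and 25 were higher without overlap. The shares over all genes tested were 1.18% that rose and 8.26% that were higher without overlap. All 30 measured radial glia genes had a positive fold change, 8 of them rose, and 18 were higher without overlap, with a median of 0.84. All 13 genes of intermediate progenitors were positive too, and 5 rose, with a median of 1.0. Over both lists the medians within replicates 1, 2 and 3 were 1.36, 0.60 and 0.87. The summed level of the 43 genes was 3401 to 4607 CPM in dKO libraries, against 1817 to 2572 CPM in control libraries. Of the 13 calls, 3, 7 and 7 remained without dKO replicate 1, 2 and 3, and 9, 7 and 5 without control replicate 1, 2 and 3. Those of Phgdh, Pax6 and Mfng held in each of these cases.

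Pax6, the transcription factor that maintains radial glia, stood at 34.2, 14.6 and 21.7 CPM in dKO libraries, against 4.58, 2.94 and 4.90 CPM in control libraries. The lowest dKO library held 2.98 times the highest control (log2 fold change 2.46, SE 0.378, adjusted p = 0.00449, edgeR). Vim, the intermediate filament of radial glia, stood at 167, 127 and 127 CPM in dKO libraries, against 74.4, 70.6 and 89.3 CPM in control libraries. Its groups were also separate (log2 fold change 0.82, SE 0.139, adjusted p = 0.00753, edgeR). Also raised were Phgdh (1.13), the first enzyme of serine synthesis, Gas1 (1.40), a co-receptor for Hedgehog proteins, Dbi (1.41), an acyl-CoA binding protein, Mfge8 (1.04), Lhx2 (1.08), a transcription factor of cortical progenitors, and Hopx (1.91), a marker of outer radial glia in primates.

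Eomes, the transcription factor that defines intermediate progenitors, stood at 23.997, 9.77 and 13.2 CPM in dKO libraries, against 0.924, 0.147 and 0 CPM in control libraries. It was near absent from controls and present in all 3 dKO libraries, so that its fold change rests on few control counts (log2 fold change 5.67, SE 1.24, adjusted p = 0.0287, edgeR). Its adjusted p with single medial libraries left out ran from 0.0443 to 0.110, and its call was lost in 5 of these 6 cases, the exception being control replicate 1. Btg2, an antiproliferative gene of neuron-producing divisions, rose by 1.6, Tcf3 by 0.77 and Rhbdl3 by 1.61. Mfng, a Fringe that adds sugars to Notch receptors, stood at 39.1, 25.7 and 28.4 CPM in dKO libraries, against 11.8, 7.35 and 6.83 CPM in control libraries. Every dKO library was above every control (log2 fold change 1.85, SE 0.264, adjusted p = 0.00287, edgeR). Of 16 genes of newborn migrating neurons only Rnd2, a small GTPase gene that promotes migration, rose (0.92, a call lost without control replicate 2 or 3 or dKO replicate 3), and the list's median was -0.12.

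Among signalling genes that radial glia use, single members passed the test. Since 1.18% of all genes tested rose, single calls in lists this short say little about a pathway as a whole. In the Notch list 2 of 24 rose, Mfng and its relative Lfng (0.90), and the median was 0.34. In the Wnt list 1 of 33 rose: Sfrp1, a secreted inhibitor, at 243, 207 and 221 CPM in dKO libraries, against 74.0, 89.1 and 135 CPM in control libraries. The groups did not overlap, with the lowest dKO library 1.53 times the highest control (log2 fold change 1.20, SE 0.191, adjusted p = 0.00562, edgeR). The FGF receptor genes Fgfr1 (0.65) and Fgfr2 (0.68) were the 2 that rose of 19 FGF genes. Of 15 genes tied to the YAP and TEAD factors, Ccn1, a secreted matrix protein, rose by 1.58 and the factor gene Tead2 by 1.01. Of 24 genes of the apical junction, which anchors radial glia at the ventricle, 3 rose: Ezr (1.77) and Msn (0.73), which tie the membrane to actin, and the polarity gene Crb2 (1.56). Gas1 was the only one of 13 Hedgehog genes past the test. Mfng, Sfrp1, Ccn1 and Ezr kept their calls with each medial library left out, Gas1 lost its call without dKO replicate 1, and Lfng, Fgfr1, Fgfr2, Tead2, Msn and Crb2 lost theirs without 4 to 6 of the libraries.

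No gene of the BMP and TGF-beta list (34 measured, median 0.15) and no gene of the retinoic acid pathway (30 measured, median -0.08) passed in edgeR. At an unadjusted p under 0.05 there were 3 and 7, and DESeq2 called 2 in each list. The 7 include Rarb, which is itself a targeted gene. Whether its lower level came from the mutated allele or from a response of the pathway was not tested. In the retinoic acid list Dhrs3, an enzyme that returns retinaldehyde to retinol, averaged 20.7 ± 0.183 CPM in dKO and 11.3 ± 4.60 CPM in controls (SD, n = 3; edgeR adjusted p = 0.0810), without overlap. Nrip1, a corepressor of nuclear receptors, averaged 193 ± 7.29 CPM in dKO and 294 ± 21.4 CPM in controls (SD, n = 3; edgeR adjusted p = 0.168). A pair of retinoic acid receptor half-sites spaced by 5 bases (AGGTCA, or GGTTCA with AGTTCA) stood in the windows of 2 of the 12687 tested genes with one, and in none of the rising or falling genes. These exact letters are too rare in the windows for their absence among called genes to say anything about receptor targets.

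Few markers of other cells passed the test. All 7 thalamus markers were positive (median 0.33) and 1 rose, Lhx2, which the radial glia and upper layer lists also hold. Astrocyte genes had a median of 0.32, and 3 of 27 rose: Ndrg2 (0.83), the glycolytic gene Aldoc (1.22) and Mlc1 (1.29), a membrane protein of astrocyte endfeet. Ndrg2 lost its call without dKO replicate 1, and Aldoc and Mlc1 lost theirs without any 1 of the 6 libraries. Their summed level was 4911 to 5214 CPM in dKO libraries, against 2546 to 4979 CPM in control libraries. No marker of interneurons (24 measured, median 0.35), ganglionic eminence progenitors (9, 0.85), ependyma and choroid plexus (9, 0.59), microglia (21, 0.33), vessels (22, 0.14), meninges (20, 0.19) or red blood cells (6, 0.77) passed. At an unadjusted p under 0.05 edgeR had 10 interneuron, 4 eminence, 6 microglia and 3 red blood cell markers and none of the other 3 lists, and DESeq2 called 5, 4, 3 and 1. Lists of Cajal-Retzius cells (9 measured), septum (5), hippocampus and cortical hem (7) and oligodendrocyte lineage (15) had no call either, with 3, 1, 1 and 1 members at an unadjusted p under 0.05 in edgeR and 1, 0, 1 and 1 called by DESeq2.

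Summed levels of several of these lists were separate between genotypes. The 7 thalamus markers summed to 127 to 184 CPM in dKO libraries, against 74.8 to 96.3 CPM in control libraries, and the 7 of hippocampus and cortical hem to 116 to 190.0 CPM in dKO libraries, against 72.6 to 83.9 CPM in control libraries. Most of the thalamus sum was Lhx2 and Calb2, and Lhx9 was at most 0.725 CPM in any medial library. In the hippocampus list Zbtb20, a transcription factor, stood at 139, 67.8 and 87.1 CPM in dKO libraries, against 35.8, 48.3 and 35.0 CPM in control libraries, higher without overlap and not past the test (adjusted p = 0.0747 in edgeR). Striatal markers, whose list holds the targeted gene Rxrg, were separate in the other direction, at 311 to 395 CPM in dKO libraries, against 414 to 506 CPM in control libraries. Interneuron markers summed to 1247 to 1591 CPM in dKO libraries, against 1072 to 1258 CPM in control libraries, which overlap by little. Ganglionic eminence progenitor markers summed to 393, 190.1 and 226 CPM in dKO libraries, against 160, 153 and 164 CPM in control libraries, with dKO replicate 1 far above the other dKO libraries. Dlx2, a transcription factor of both lists, averaged 97.9 ± 66.6 CPM in dKO and 39.9 ± 9.57 CPM in controls, with no overlap (SD over 3 libraries; log2 fold change 1.20, SE 0.317, adjusted p = 0.0606, edgeR). Red blood cell genes summed to 1472 to 2868 CPM in dKO libraries, against 817 to 1163 CPM in control libraries, with all 6 genes positive. Microglia markers summed to 353 to 430.1 CPM in dKO libraries, against 209 to 426 CPM in control libraries and meningeal markers to 1902 to 2790.3 CPM in dKO libraries, against 798 to 4187 CPM in control libraries, both with overlap. Ependyma and choroid plexus markers were at 13.3 to 22.97 CPM in dKO libraries, against 7.48 to 19.7 CPM in control libraries in sum. The part of these cells in the rise of division and progenitor genes was not tested.

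Predicted genes aside, the strongest single rises by p also held genes outside these lists. Fam210b, a mitochondrial membrane protein, stood at 341, 413 and 479.7 CPM in dKO libraries, against 157, 93.1 and 90.7 CPM in control libraries. The dKO libraries were 2.18 to 5.29 times as high as their same-numbered controls (log2 fold change 1.89, SE 0.218, adjusted p = 0.00107, edgeR). Csrp1, a LIM domain protein of the actin cytoskeleton, stood at 65.9, 61.7 and 56.6 CPM in dKO libraries, against 22.3, 29.5 and 24.2 CPM in control libraries. Group ranges were wide apart (log2 fold change 1.27, SE 0.153, adjusted p = 0.00115, edgeR). Ptx3, a secreted pentraxin of innate immunity, rose by 2.12, Spp1, the secreted protein osteopontin, by 2.05, the calcium-binding protein gene Efhd2 by 1.06, the lipase gene Abhd4 by 1.23 and Pdgfrl by 1.26. The calls of these 7 genes held with each medial library left out.

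Large fold changes came from genes with low control levels. Dct, an enzyme of melanin synthesis, stood at 3.97, 13.4 and 11.1 CPM in dKO libraries, against 0.586, 0 and 0.187 CPM in control libraries. Hgf, a secreted growth factor, stood at 12.2, 5.47 and 9.89 CPM in dKO libraries, against 0.484, 1.06 and 1.40 CPM in control libraries. In both genes the lowest dKO library was several times the highest control. Kcnj10, the potassium channel of glia, rose by 3.19, the ectonucleotidase gene Entpd2 by 2.90, Veph1 by 3.14, the calcium store gene Casq1 by 2.74 and the urea transporter gene Slc14a2 by 2.72. Unlike those of the genes above, each of these 7 calls was lost without at least 1 medial library: dKO replicate 1 for Casq1 (adjusted p = 0.0557 in edgeR), and 3 to 5 of the libraries for the other 6, with adjusted p up to 0.132 (Dct).

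Neuronal genes past the test mostly fell, with smaller changes. In 9 lists of synapse, channel and neurite genes, 308 genes were measured, 24 (7.79%) fell and 2 rose, and 117 were lower without overlap, beside 10 that were higher. Over all genes tested, 0.897% fell, 1.18% rose, 9.29% were lower without overlap and 8.26% were higher. The median of the 308 was -0.46 (-0.38, -0.60 and -0.32 within replicates 1, 2 and 3), and 44 of the 308 were positive. The summed level of these genes was 61573 to 71881 CPM in dKO libraries, against 82552 to 91322 CPM in control libraries. Most of it came from the 42 genes of the neurite cytoskeleton and transport, at 45979 to 53698 CPM in dKO and 60859 to 71540 CPM in control libraries. Of the 26 calls in either direction, 6, 6 and 11 remained without dKO replicate 1, 2 and 3, and 22, 6 and 9 without control replicate 1, 2 and 3. In all, 5 held in each case.

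Presynaptic genes held the most of these falls. Of 43 genes of synaptic vesicle release, 10 (23.3%) fell and none rose, 27 were lower without overlap, and the median was -0.55. Among all genes tested, 0.897% fell and 9.29% were lower without overlap. Syn2, which tethers synaptic vesicles to one another, stood at 56.6, 56.2 and 57.5 CPM in dKO libraries, against 107, 141 and 111 CPM in control libraries. The dKO values lay close together and well below the controls (log2 fold change -1.08, SE 0.153, adjusted p = 0.00287, edgeR). Syt1, the calcium sensor of release, stood at 158, 162 and 186 CPM in dKO libraries, against 229.5, 384 and 326 CPM in control libraries. Here the control of replicate 1 was nearer to dKO than the other controls (log2 fold change -0.89, SE 0.183, adjusted p = 0.0207, edgeR). The vesicle protein genes Sv2b (-1.22), Syngr3 (-0.64) and Syn1 (-0.78), the fusion genes Stx1a (-0.90) and Napb (-0.61), the calcium-binding protein gene Doc2b (-1.39) and the clathrin adaptor gene Snap91 (-0.95) fell as well. The call of Syn2 was the one that held with each library left out; of the 10, 1, 2 and 3 remained without dKO replicate 1, 2 and 3, and 9, 2 and 3 without control replicate 1, 2 and 3.

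Fewer genes of receptors, channels and scaffolds passed. Of 24 glutamate receptor genes, 2 fell and the median was -0.70. Grm7, a presynaptic metabotropic receptor, stood at 15.2, 7.47 and 6.12 CPM in dKO libraries, against 20.9, 27.5 and 22.5 CPM in control libraries, with no overlap (log2 fold change -1.46, SE 0.293, adjusted p = 0.0191, edgeR). Grin3a, an NMDA receptor subunit of young neurons, had a log2 fold change of -1.15. The scaffold gene Cnksr2 (-0.77), the adhesion gene Lrfn5 (-0.56), the calcium channel subunit gene Cacnb3 (-0.75), the pacemaker channel gene Hcn3 (-0.87) and Gucy1b1, a subunit of the nitric oxide receptor, were lower as well. With 1 medial library left out at a time, Grm7 and Grin3a lost their calls in 5 of 6 cases, Cnksr2, Lrfn5 and Cacnb3 in all 6 and Hcn3 in 3, with adjusted p up to 0.266 (Lrfn5, edgeR), while Gucy1b1 kept its call. Gucy1b1 stood at 73.9, 67.0 and 77.2 CPM in dKO libraries, against 162, 199 and 132 CPM in control libraries. Its highest dKO library held 0.587 times its lowest control (log2 fold change -1.18, SE 0.171, adjusted p = 0.00329, edgeR). In the other direction went 2 of 52 potassium channel genes, Kcnj10 and the calcium-activated channel gene Kcnn2 (1.20), while the median of that list was -0.31.

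Several abundant genes of neurites fell. Of 42 genes of the neurite cytoskeleton and transport, 5 (11.9%) fell and 20 were lower without overlap (median -0.45). Among all genes tested these shares were 0.897% and 9.29%. Map1b, a microtubule protein of growing axons, stood at 1365, 1261 and 1655 CPM in dKO libraries, against 2322, 2949 and 2723 CPM in control libraries. The most abundant dKO library was below the least abundant control (log2 fold change -0.90, SE 0.165, adjusted p = 0.0119, edgeR). Mapt, which encodes tau, fell with a log2 fold change of -0.61, Dpysl2, which promotes axon growth, with -0.71, and Map6, which stabilizes microtubules, with -0.73. Rtn4, a reticulon known as an inhibitor of axon regrowth, stood at 179, 190.0 and 182 CPM in dKO libraries, against 324, 384 and 359 CPM in control libraries. The dKO values lay close together, and all 3 were far below the controls (log2 fold change -0.95, SE 0.144, adjusted p = 0.00403, edgeR). Of the 5 calls, 1, 1 and 3 remained without dKO replicate 1, 2 and 3, and 5, 1 and 2 without control replicate 1, 2 and 3. That of Rtn4 held in each case.

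**Figure D3:**
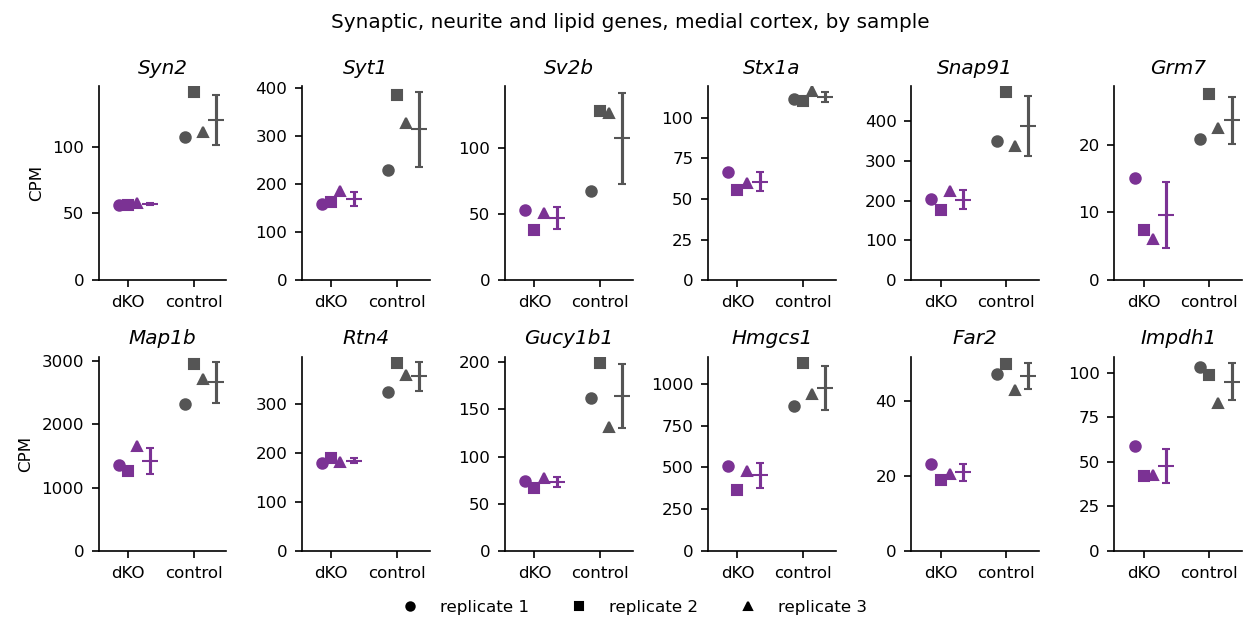
Levels in CPM (linear axes from 0) of 12 synaptic, neurite and lipid genes in 3 dKO and 3 control libraries of medial cortex, with the mean and SD of each group drawn beside the points. In all 12 panels the dKO points lie below the control points, and the dKO points of Syn2 (56.2 to 57.5 CPM) and Rtn4 (179 to 190.0 CPM) lie closest together for their level.

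Guidance and identity genes did not move together. In the semaphorin list Sema5b, a guidance cue, rose by 1.52, and the receptor gene Plxnd1 had a fold change of -1.43 with overlapping groups, 15.7, 34.1 and 29.2 CPM in dKO libraries, against 31.6, 111 and 80.4 CPM in control libraries. Ephb6 was the 1 of 33 Eph, ephrin, netrin and Slit genes past the test (-0.98). No cadherin gene of 31 passed in edgeR or DESeq2 (median -0.25, 4 at an unadjusted p under 0.05 in edgeR). Of 26 deep layer genes Rprm fell (-0.77; list median -0.16), and of 20 upper layer genes Lhx2 rose and Plxnd1 fell, with a list median of -0.18. Each of these 5 calls was lost without 4 or 5 of the 6 medial libraries, left out 1 at a time. None of the 8 genes of cortical identity passed in edgeR or DESeq2, and 2 lower ones had an unadjusted p under 0.05 in edgeR. Of the 8, 6 had a negative and 2 a positive fold change. The 2 were Slc17a7 and Tbr1 of layer 6. Slc17a7 stood at 26.2, 25.3 and 25.7 CPM in dKO libraries, against 32.1, 62.1 and 51.5 CPM in control libraries. It was lower without overlap (log2 fold change -0.91, SE 0.300, adjusted p = 0.138, edgeR). Tbr1 averaged 243 ± 69.98 CPM in dKO and 348 ± 41.5 CPM in controls, with overlap (SD, n = 3). Markers of projection neurons of the striatum, which lies below the cortex, had a median of -0.34 and no member past the test in edgeR (2 at an unadjusted p under 0.05, and 2 called by DESeq2). That list holds the targeted gene Rxrg (-1.75), so its values are in part those of a mutated gene.

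Enzymes of cholesterol synthesis were lower along the pathway, and 5 of them fell past the test. Of 28 measured genes of the pathway and its control, 5 (17.9%) fell, 1 rose and 18 were lower without overlap, with a median of -0.61 (-0.73, -0.68 and -0.30 within replicates 1, 2 and 3). Among all genes tested, 0.897% fell and 9.29% were lower without overlap. The summed level of the 28 genes was 2578 to 3017 CPM in dKO libraries, against 3988 to 5046 CPM in control libraries. Young neurons and glia make their own cholesterol, since that of the blood does not reach the brain.

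Hmgcs1, which makes the precursor HMG-CoA, stood at 509, 367 and 482 CPM in dKO libraries, against 869.6, 1125 and 939 CPM in control libraries. Every dKO library was far below every control (log2 fold change -1.12, SE 0.159, adjusted p = 0.00287, edgeR). Nsdhl, an enzyme of sterol demethylation, stood at 43.4, 28.5 and 30.8 CPM in dKO libraries, against 74.5, 78.3 and 54.3 CPM in control libraries. Its groups were separate as well, and the gene is X-linked (log2 fold change -1.04, SE 0.182, adjusted p = 0.00890, edgeR). The other falls were Fdps (-0.94), which makes farnesyl diphosphate, Acat2 (-0.87), which supplies acetoacetyl-CoA, and Lss (-0.81), which closes the sterol ring.

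Srebf1 went the other way. It encodes a lipid-regulating transcription factor that mainly controls fatty acid genes, and it stood at 95.4, 55.7 and 86.4 CPM in dKO libraries, against 23.3, 31.6 and 23.95 CPM in control libraries. The lowest dKO library held 1.76 times the highest control (log2 fold change 1.56, SE 0.264, adjusted p = 0.00753, edgeR). Srebf2, the main activator of cholesterol genes, stood at 258, 200.002 and 218 CPM in dKO libraries, against 282, 356 and 273 CPM in control libraries, lower without overlap and not past the test (adjusted p = 0.256 in edgeR). Of 23 genes of fatty acid synthesis 2 fell, Far2, which makes fatty alcohols, at -1.16 and the desaturase family gene Fads3 at -1.10, and the median was -0.20. Of the 6 calls of the cholesterol list, 2, 2 and 4 remained without dKO replicate 1, 2 and 3, and 6, 4 and 4 without control replicate 1, 2 and 3. Those of Hmgcs1 and Srebf1 held in each case.

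**Figure D4:**
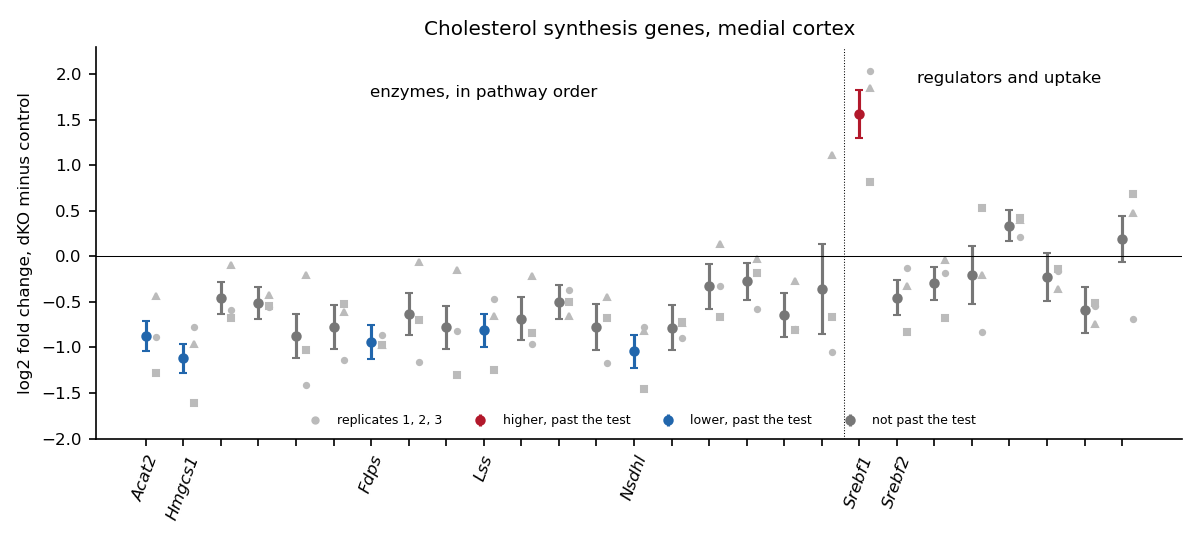
Log2 fold change with its standard error (dKO minus control, medial cortex) for 19 enzymes of cholesterol synthesis in pathway order and, right of the dotted line, 8 regulators and uptake genes, with labels for genes named in the text; small grey circles, squares and triangles show the difference within replicates 1, 2 and 3. All 19 enzymes are below 0, 5 of them past the test. Srebf1 (1.56) is the highest of the 3 regulators above 0.

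The windows of the 3 falling cholesterol genes with the lowest p that held a searched motif are shown here. Sterol-responsive promoters often pair a CCAAT box with a sterol response element (TCACCCCAC). Capitals mark CCAAT or its reverse complement and, in Hmgcs1, TCACCCCAC. Hmgcs1 lies at chr13:119690101-119690400, plus strand, Nsdhl at chrX:72918271-72918570, plus strand and Lss at chr10:76531355-76531654, plus strand, in GRCm38.p6 of RefSeq, each window printed on the gene's strand.
Hmgcs1: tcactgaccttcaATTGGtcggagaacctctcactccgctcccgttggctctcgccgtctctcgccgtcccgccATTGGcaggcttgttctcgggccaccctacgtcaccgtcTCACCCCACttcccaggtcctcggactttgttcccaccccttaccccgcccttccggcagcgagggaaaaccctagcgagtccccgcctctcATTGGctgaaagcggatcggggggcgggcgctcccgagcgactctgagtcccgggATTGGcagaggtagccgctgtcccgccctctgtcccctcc
Nsdhl: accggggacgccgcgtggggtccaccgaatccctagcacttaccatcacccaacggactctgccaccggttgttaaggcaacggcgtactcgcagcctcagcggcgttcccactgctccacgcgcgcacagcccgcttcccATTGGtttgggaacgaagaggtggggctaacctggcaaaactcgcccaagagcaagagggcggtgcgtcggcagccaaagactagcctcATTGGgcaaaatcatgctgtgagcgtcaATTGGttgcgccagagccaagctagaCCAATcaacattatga
Lss: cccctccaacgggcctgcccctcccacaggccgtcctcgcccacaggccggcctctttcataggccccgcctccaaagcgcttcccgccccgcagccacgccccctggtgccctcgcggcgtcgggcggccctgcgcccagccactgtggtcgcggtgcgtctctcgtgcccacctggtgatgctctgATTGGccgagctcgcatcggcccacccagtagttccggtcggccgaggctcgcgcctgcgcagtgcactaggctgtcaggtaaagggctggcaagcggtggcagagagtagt
Of these only the Hmgcs1 window held TCACCCCAC on either strand. Of the 5 falling cholesterol genes 4 had a window, and 3 of these 4 held CCAAT. Of 20 cholesterol genes with a window, 18 (90%) held CCAAT and 1 (5%) held TCACCCCAC, against 42.4% and 0.694% of all tested genes with a window.

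Other falling genes with the lowest p served nucleotide, lipid and signalling steps. Impdh1, which commits purines to guanine nucleotides, stood at 58.8, 42.0 and 42.8 CPM in dKO libraries, against 103, 98.9 and 83.2 CPM in control libraries, with separate groups (log2 fold change -1.01, SE 0.160, adjusted p = 0.00562, edgeR). Idh1, the cytosolic isocitrate dehydrogenase that yields NADPH, had a log2 fold change of -0.73, the glycolipid enzyme genes B4galt6 and B4galt5 -0.79 and -0.87, the chaperone gene Hsph1 -0.77, the glucose transporter gene of neurons Slc2a3 -0.73, and Rap1gds1, an exchange factor for small GTPases, -1.0. Necab1, a calcium-binding protein of neurons, had -1.12, the GTPase regulator gene Gmip -0.97, Rusc1 -1.08 and Vat1l -1.42. The largest falls among genes of at least 5 CPM were Klhl1 (-1.78), the receptor kinase gene Styk1 (-1.64) and Tshr (-1.62), the thyrotropin receptor. The call of Gmip ended when dKO replicate 1 or 2 was left out, Styk1's without dKO replicate 2, and Klhl1 and Tshr without 4 and 5 of the 6 libraries, with adjusted p up to 0.206 (Klhl1, edgeR). Hsph1, Rusc1 and B4galt6 lost theirs without dKO replicate 1 or 2, B4galt5 without these or control replicate 2, and Slc2a3 without any library but control replicate 3.

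Genes that fell were longer than those that rose. The median exonic length was 5348 bases for falling and 3754 bases for rising genes, against 3761 bases for all genes tested. In the genome the falling genes spanned a median of 37062.5 bases and the rising genes 20868, against 18985 for all tested. Of 610 X-linked genes tested, 13 passed, 2 of them higher in dKO, beside 389 of 18730 over all genes tested (2.08%). None of the 6 Y-linked genes tested passed by edgeR's test. The dKO libraries were of both sexes, with Ddx3y from 0.0527 to 111 CPM, so that test cannot show a difference in Y-linked genes.

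Neighbours of the targeted genes were looked at because a deleted locus can carry linked differences. Within 10 Mb of Rarb, 5 of 104 tested genes passed (4.81%), and within 10 Mb of Rxrg 4 of 186 (2.15%), beside 2.08% of all genes tested. The 5 near Rarb were the predicted genes Gm6356 and Gm3739, which rose, and Thrb, a thyroid hormone receptor gene, Lrrc3b and the calcineurin subunit gene Ppp3cb, which fell. They were named after their values were seen. Gm6356 stood at 17.7, 39.4 and 41.0 CPM in dKO libraries, against 0, 0 and 0 CPM in control libraries, with the lowest adjusted p of all genes tested (4.69e-08, edgeR). Gm3739 stood at 21.9, 48.7 and 36.0 CPM in dKO libraries, against 6.69, 4.47 and 9.79 CPM in control libraries. Both were separate between genotypes. Thrb stood at 4.92, 5.40 and 4.58 CPM in dKO libraries, against 7.27, 12.9 and 13.3 CPM in control libraries, lower without overlap (log2 fold change -1.16, SE 0.268, adjusted p = 0.0346, edgeR). The 4 near Rxrg were Kcnj10, Casq1 and Pea15a, which rose and lie near one another, and Kifap3, a kinesin-2 subunit gene, which fell. Whether linked sequence took part was not tested.

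The change in medial cortex was set beside that in orbital and dorsal cortex of the same design. By the same test 7 genes passed in orbital and 4 in dorsal tissue. Of the 221 genes that rose in medial tissue, 179 had a positive fold change in orbital and 211 in dorsal tissue, where 47.5% and 48.7% of all genes tested were positive. Their median log2 fold change was 1.43 in medial, 0.45 in orbital and 0.51 in dorsal tissue. Of the 168 that fell, 128 were negative in orbital and 166 in dorsal tissue, with medians of -0.87, -0.24 and -0.46. For the mitosis lists the medians were 1.33 in medial, 0.52 in orbital and 0.69 in dorsal tissue, for the neuron lists -0.46 in medial, 0.13 in orbital and -0.22 in dorsal, and for cholesterol genes -0.61 in medial, -0.32 in orbital and -0.45 in dorsal. The labels do not say whether libraries of different regions came from the same pups.

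A test of the difference itself asked which genes responded otherwise in medial cortex than in the mean of the other regions. With each run of 3 regions that share a title prefix and genotype and have consecutive title numbers as a block, 13 of 18730 genes passed (0.0694%), 8 with a higher and 5 with a lower effect in medial tissue (edgeR). Against orbital tissue alone 275 genes passed. Against dorsal tissue alone none passed in edgeR, and 969 had an unadjusted p under 0.05; other tools were not run for that pair.

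Fabp7, the fatty acid binding protein of radial glia, stood at 707, 747 and 487 CPM in dKO, against 368, 395 and 425 CPM in control medial tissue. In orbital tissue it stood at 485, 419 and 299 CPM in dKO, against 508, 552 and 637 CPM in controls. All medial dKO libraries were above all medial controls, and all orbital dKO libraries were below all orbital controls (difference of log2 effects 1.05, SE 0.156, adjusted p = 0.0391 in edgeR). Mdk, the growth factor midkine, stood at 59.1, 57.3 and 56.4 CPM in dKO, against 17.99, 18.02 and 30.1 CPM in control medial tissue, and its difference of effects was 1.28. Smpdl3a, a phosphodiesterase gene, stood at 50.4, 61.9 and 51.0 CPM in dKO, against 19.1, 22.0 and 26.7 CPM in control medial tissue, and at 32.2, 40.4 and 31.4 CPM against 33.9, 29.7 and 44.4 CPM in orbital tissue. The medial groups were separate and the orbital groups overlapped (1.19 for the difference).

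Csrp1, Dbi, Fam210b, the chromatin protein gene Hmgb2 and Ndrg2 also had a higher effect in medial tissue. Necab1, the potassium channel gene Kcnh1, Nwd2, the LDL receptor family gene Lrp1b and the phospholipase gene Pla2g4e had a lower one. Of these 13, Fabp7, Kcnh1, Nwd2, Lrp1b and Pla2g4e did not pass in medial tissue alone. The count rested on single libraries: it was 0 without any 1 of dKO replicates 1, 2 and 3 or control replicate 3, 1 without control replicate 2 and 503 without control replicate 1.

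**Figure D5:**
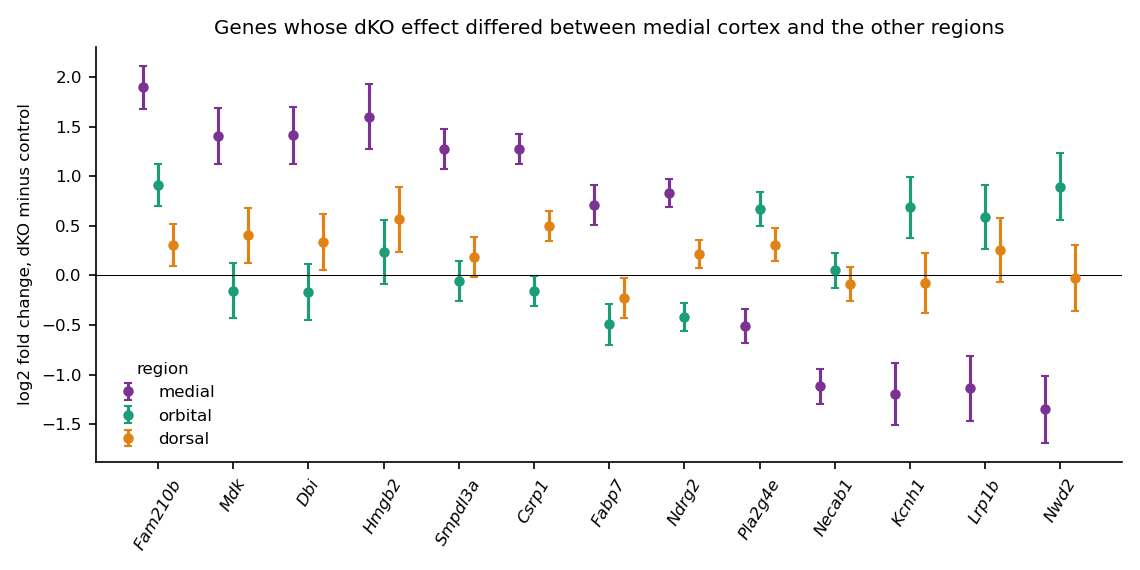
Log2 fold change with its standard error (dKO minus control) in medial, orbital and dorsal cortex for the 13 genes whose effect differed between medial cortex and the mean of the other regions, ordered by that difference. Medial values run from -1.35 for Nwd2 to 1.89 for Fam210b, and orbital and dorsal values of most of these genes lie nearer to 0 or on its other side.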

How the data were processed

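The authors deposited 1 table that holds, for each gene and library, an unnormalized count of read pairs. Per the file headers, featureCounts 1.6.2 counted read pairs without regard to strand against Ensembl 94 models of GRCm38, so reads of overlapping and antisense genes cannot be told apart. Per the submitters' processing notes, reads were aligned with STAR 2.6. RNA was made into libraries with SMART-seq v4 and Nextera XT, per the labels' protocols. The labels matched 18 of its columns, and 6 more belonged to no sample here and were left unread. Symbols were matched by identifier for 54409 of 54532 genes.

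The main fits were made with edgeR 4.0.16 under R 4.3.3. Genes passed filterByExpr (minimum count 10, minimum total 15), libraries were scaled by TMM, and quasi-likelihood F tests were fitted to all 18 libraries with 6 group means and the title prefix. Benjamini-Hochberg adjustment ran over the 18730 genes tested, with a threshold of 0.05. The difference between regions was tested with 6 blocks of 3 regions. CPM values use TMM-scaled library sizes, and groups were called separate when all 3 dKO values lay on 1 side of all 3 control values. Medial totals ran from 29595577 to 93093398 fragments, so that precision is lowest in genes of few CPM.

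Named genes were, per direction, the 25 with the lowest p and the 10 with the largest change (at least 5 CPM in the higher group) among those past the test with at least 1 CPM on average and the same sign in the 3 sets. Predicted genes, Y-linked genes and Xist were left out. Every list member past the test, or up to 4 with the lowest p where none passed, was added. These genes and the 57 lists were chosen with earlier results of these data known, and some genes chosen by the rules are not reported here. Alternatives were DESeq2 1.42.0, voom from limma 3.58.1, scaling by RLE, dropping the filter, other terms for prefix, set and sex, the 6 medial libraries alone, and leaving out each medial library. Promoter windows come from RefSeq (GRCm38.p6). Figures were drawn with matplotlib 3.10.9.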

Additional observations from a re-analysis of the deposited data

Results flagged for a closer look

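The dKO effect of 13 genes differed between medial cortex and the mean of orbital and dorsal cortex in a test of the difference itself (edgeR's quasi-likelihood test, adjusted p under 0.05). The difference of log2 effects was 1.28 for Fam210b, 1.11 for Csrp1, 1.26 for Dbi, 0.93 for Ndrg2, 1.28 for Mdk, 1.05 for Fabp7, 1.19 for Smpdl3a and 1.20 for Hmgb2, all higher in medial tissue. It was -1.09 for Necab1, -1.46 for Kcnh1, -1.53 for Lrp1b, -1.82 for Nwd2 and -0.99 for Pla2g4e, all lower in medial tissue. Their adjusted p lay between 0.0391 and 0.0449.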

How the results depend on the processing

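Of 18730 genes, 389 passed the test in medial cortex (221 higher, 168 lower), and each setting below kept the sign of all of them, except that the fits of the 6 medial libraries alone tested 384, all of the same sign. The count was 1120 with DESeq2, 688 with limma-voom, 156 without the title prefix, 156 with sex as a covariate (130 shared), 31 from the 6 medial libraries alone and 68 at an adjusted p of 0.01. RLE scaling, no filter on low counts and autosomal genes alone stayed within 1.5 times (377, 565 and 376). Leaving out 1 medial library gave 67 (dKO replicate 1) to 362 genes (control replicate 1). The higher genes were 56.8% of calls, against 67.3% without the title prefix, 90.3% from the medial libraries alone, and 48.1% (control replicate 1) to 79.4% (dKO replicate 2) with a library left out. The cause of these shifts was not tested.

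Of the 171 division genes 61 passed, against 97 with DESeq2, 25 without the prefix, 27 with sex and 8 from the medial libraries alone (18 to 33 with a library left out). Progenitor genes numbered 13, against 20 with no filter, 22 with DESeq2, 8 without the prefix, 6 with sex and 4 from the medial libraries alone (3 to 9). Neuronal genes numbered 24, against 49, 10, 10 and 0 for DESeq2, no prefix, sex and the medial libraries alone (4 to 28). Cholesterol genes numbered 5, against 9 with no filter, 10 with DESeq2, 1 without the prefix and 0 from the medial libraries alone (1 to 6). The 13 genes whose effect differed by region became 497 with DESeq2, 453 with no filter and 0 without the row block, and 0 to 503 with a medial library left out (503 without control replicate 1, and 1 or 0 without each other library). Of 242 named genes, single values kept their side of the threshold in 2548 cases, lost it in 997, gained it in 83 and reversed in 0. Among genes not past the test, the sign of the fold change switched in 2 cases for Zic5 and 1 for Dcn.

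The replicate numbers are not stated to pair samples. Deviations of same-numbered dKO and control libraries correlated at -0.152, -0.340 and 0.0708 over 14330 genes. With set as a replicate block over all regions 662 genes passed (39 neuronal), and with the block in the 6 medial libraries alone 1 passed in edgeR (1914 at an unadjusted p under 0.05), with 0 division, 0 progenitor, 0 neuronal and 0 cholesterol genes.

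Depth limits genes of few CPM, most of all in dKO replicate 2 (29595577 fragments).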
